A study of Mus musculus with 7 samples.

Results

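Long non-coding RNA genes and the host genes of small nucleolar RNAs (snoRNAs) were followed in G1E cells, a mouse erythroid line that lacks the transcription factor GATA1, with and without the gene Lockd. Genes were taken by name: every gene called Snhg followed by a number, and the well-known long non-coding RNA and microRNA host genes of a fixed list. They had to be measured by a probeset that the array's annotation gives to 1 gene symbol. The 30 genes that met this were 15 Snhg genes and 15 others, out of 22180 genes tested, and 36 probesets measured them. Where a gene had several probesets, the one with the highest mean over all arrays stood for it. Of the 24 listed names, 9 are not analysed here. Mirg, H19, Gas5, Sox2ot, Mir17hg, Mir155hg and Mir22hg had only probesets shared with other symbols, as did Snhg16 and Snhg8, and Hottip and Mir142hg had no probeset with a name.

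The RNA of 7 samples was hybridised to Affymetrix Mouse Gene 2.0 ST arrays. The 3 control arrays came from G1E cells with Lockd unedited, and the 4 deletion arrays from G1E cells in which CRISPR/Cas9 had removed it. All of the cells share the G1E background and its lack of GATA1, and neither a differentiation stimulus nor a time point is named in the labels. The samples are called clones in the series' design text, and how many independent clones or cultures they stand for is not given, so the p-values cover no more than the variation among these samples, part of which may be technical. The edit takes away DNA as well as the transcript. In RNA from whole cultures, fewer cells of a type and less RNA per cell cannot be told apart. Values are log2 signals of RMA, a method that removes background, gives every array the same distribution of values and combines the probes of a probeset into a single number. A difference of 1 on this scale is a doubling of signal.

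Many snoRNAs, which guide the chemical modification of ribosomal RNA, are not made from genes of their own but are cut out of the introns of longer transcripts. The spliced exons of such host genes often code for no protein and are degraded during translation by nonsense-mediated decay, and many hosts begin with a run of pyrimidines like the one that opens the messenger RNAs of ribosomal proteins. Other long non-coding RNAs act in place: Neat1 builds the nuclear bodies called paraspeckles, Malat1 gathers in nuclear speckles, and Airn and Kcnq1ot1 silence neighbouring genes on the chromosome inherited from the father.

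To show which genes carry such a run, the bases around the annotated start are given for genes on which the results turn, 20 on each side. They are from RefSeq, assembly GRCm38.p6, on the strand of the gene. Capitals mark the longest unbroken run of C and T that touches the 10 bases before or after the start, on that strand only. Snhg1 (chr19:8723467-8723506, plus strand), Snhg12 (chr4:132308658-132308697, plus strand) and Snhg9 (chr17:24719946-24719985, minus strand) have long runs. Snhg5 (chr9:88522878-88522917, minus strand) is shown because its groups did not overlap, and Snhg15 (chr11:6528741-6528780, minus strand) and Rian (chr12:109603925-109603964, plus strand) because their differences were among the largest. Malat1 (chr19:5802653-5802692, minus strand) and Tug1 (chr11:3648795-3648834, minus strand) stand for bright genes that host no snoRNA, and Dleu2 (chr14:61682354-61682393, minus strand) for the microRNA hosts.
Snhg1: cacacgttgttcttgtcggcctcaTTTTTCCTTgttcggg
Snhg12: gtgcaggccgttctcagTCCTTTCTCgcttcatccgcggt
Snhg9: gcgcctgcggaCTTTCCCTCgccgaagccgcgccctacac
Snhg5: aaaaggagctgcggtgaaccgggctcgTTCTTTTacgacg
Snhg15: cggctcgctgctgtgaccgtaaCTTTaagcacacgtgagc
Rian: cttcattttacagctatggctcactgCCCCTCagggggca
Malat1: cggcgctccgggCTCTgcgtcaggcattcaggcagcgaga
Tug1: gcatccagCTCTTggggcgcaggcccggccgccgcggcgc
Dleu2: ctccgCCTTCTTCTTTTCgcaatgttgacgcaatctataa
A run of 8 or more was found in 6 of the 23 genes with a sequence used here: Snhg1, Snhg9, Snhg10, Snhg12 and Snhg18 among 13 Snhg genes, and Dleu2 among the 10 others. The same search found one in 15.8% of the 27025 genes in the table and in 29 of 61 ribosomal protein genes (47.5%). These counts describe letters around annotated starts, which can lie some bases away from the start used in G1E cells.

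Dleu2 also carries the microRNA genes Mir15a and Mir16-1, whose main products are shown because they share a seed, the part of a microRNA that pairs with its targets. The seed, bases 2 to 8, is in capitals. The mature sequences are those of RefSeq, GRCm38.p6, at chr14:61632075-61632096 and chr14:61631936-61631957, both on the minus strand.
miR-15a-5p: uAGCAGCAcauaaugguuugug
miR-16-5p: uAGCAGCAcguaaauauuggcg

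The targeted gene followed its labels. The signal of Lockd, a long non-coding RNA gene downstream of the cell-cycle inhibitor gene Cdkn1b, was 7.89, 8.04 and 7.80 in the control group against 5.09, 5.15, 4.17 and 5.15 after deletion. It fell by 3.02 (SE 0.23, limma adjusted p = 0.0162). Its neighbour Cdkn1b fell by 1.14 (SE 0.10, limma adjusted p = 0.0251). These were the 2 probesets of 23521 (0.0085%) that passed an adjusted p under 0.05. The count was 0 without any 1 of the 3 control arrays, without the first or the fourth deletion array, with either replicate block and with all probesets of the table tested. The arrays were alike, with correlations between 0.9925 and 0.9963 and medians between 5.42 and 5.46. Of the erythroid marker genes fixed as a list, 15 were measured and 15 lay above the median gene (5.72), 10 of them above the 90th percentile (10.01), with list means of 10.61 to 10.80 in the control group and 10.57 to 10.83 in the deletion group. Lymphoid and pluripotency markers had 0 of 7 and 0 of 6 genes above the median, and myeloid markers 1 of 9. Progenitor and mast cell markers had 5 of 12 above the median, 4 of them above the 90th percentile, stromal and endothelial markers 3 of 9 and megakaryocyte markers 2 of 6.

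None of the 30 long non-coding RNA and snoRNA host genes passed the test between deletion and control cells, against 0.0085% of all probesets, and each had an adjusted p = 0.999 in the limma fit. An unadjusted limma p under 0.05 was reached by 0 of the 30, where 4.64% of all probesets reached one. The groups did not overlap for 2 genes, Snhg5 (deletion higher) and Snhg9 (deletion lower), a share close to the 5.19% of all genes. The deletion mean was the higher one for 17 of the 30, against 52.2% of all genes. Differences ran from -0.21 for Neat1 to 0.19 for Rian, with a median of 0.03 where the median of all genes was 0.01.

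The precision sets what these arrays could have missed. The 95% intervals of the differences reached from -0.49 (28.8% lower) at the lowest bound, that of Neat1, to 0.46 (37.9% higher) at the highest, that of Hotair. For 19 of the 30 genes the whole interval lay within a 1.25-fold change in either direction. For the other 11 it reached past that size, so a change of that size is not excluded for them. Snhg14 and Snhg18 were the 2 genes whose intervals were so wide that an observed 1.25-fold difference would still have included 0.

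**Figure D1:**
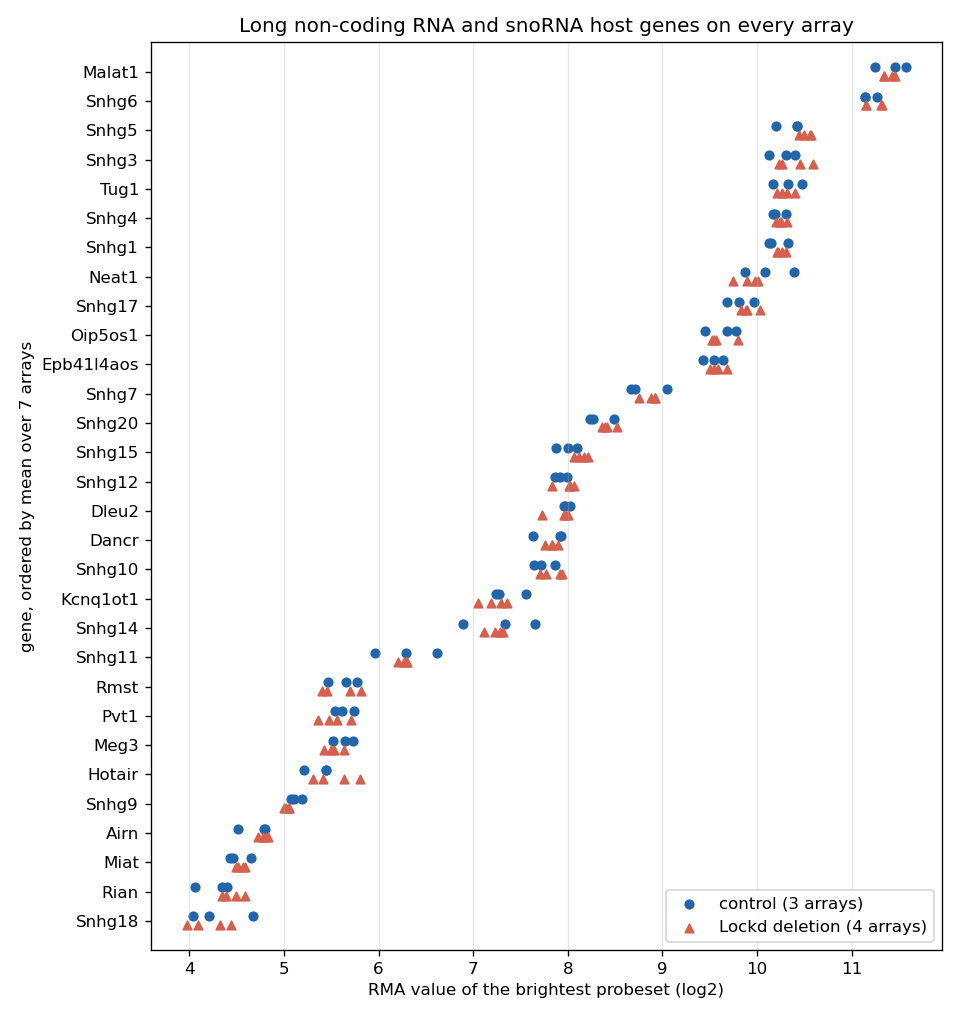
RMA values (log2, horizontal axis) of the 30 genes on each array, ordered from the brightest at the top to the dimmest at the bottom, with circles for the 3 control arrays and triangles for the 4 deletion arrays. The groups overlap for every gene except Snhg5, where the triangles lie higher, and Snhg9, where they lie lower.

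By brightness the genes spanned most of the range of the array. Malat1 was first with a mean of 11.41 over the 7 arrays, followed by Snhg6 (11.21), Snhg5 (10.44), Snhg3 (10.34), Tug1 (10.31), Snhg4 (10.24), Snhg1 (10.23) and Neat1 (9.99). The dimmest were Airn (4.75), Miat (4.53), Rian (4.37) and Snhg18 (4.25). The median gene of the array lay at 5.72, and 21 of the 30 were above it. The order is one of probesets, whose probes differ in number and affinity, and is not an order of abundance. Steps between neighbours from the third to the seventh place were smaller than the range of either gene over the 7 arrays. RMA values carry no detection call, so the low values of Miat, Rian or Snhg18 do not show absence, and a true difference in a dim gene can appear smaller on this scale.

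Among the snoRNA hosts, 16 genes by role (14 Snhg genes, Dancr and Epb41l4aos), the deletion mean was higher for 13 and lower for 3, with a median difference of 0.06. None passed the adjusted test and 0 had an unadjusted limma p under 0.05. The role follows the name and known function of a gene. Taking instead the 16 genes that hold a snoRNA gene in the RefSeq table, which leaves out Snhg10 and Snhg20 and adds Rian and Snhg14, 12 were higher and 4 lower, with a median of 0.05. Snhg6, the host of Snord87, read 11.14, 11.27 and 11.15 on the control arrays against 11.31, 11.15, 11.15 and 11.32 after deletion, a difference of 0.04 (SE 0.08), and the groups overlapped. Snhg5, whose human counterpart hosts the U50 snoRNA, read 10.43, 10.42 and 10.20 on the control arrays against 10.44, 10.49, 10.57 and 10.56 after deletion, a difference of 0.17 (SE 0.08, 95% interval -0.01 to 0.35). All 4 deletion values were above the 3 control values, but the lowest of them only just, and the third control array lay furthest from the rest.

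Snhg3, the host of Snora73a and Snora73b, read 10.40, 10.30 and 10.12 on the control arrays against 10.26, 10.23, 10.45 and 10.59 after deletion. The difference was 0.11 (SE 0.11), and the first control array lay above 2 of the deletion arrays. Snhg4, the host of Snora74a and Mir1949, read 10.16, 10.30 and 10.19 against 10.24, 10.25, 10.20 and 10.32, a difference of 0.03 (SE 0.07). It had the narrowest range over the 7 arrays of all 30 genes, 0.155. Snhg1, the host of Snord22 and further snoRNAs, read 10.14, 10.32 and 10.12 against 10.21, 10.22, 10.31 and 10.27, a difference of 0.05 (SE 0.07), and its deletion values lay inside the control range.

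Snhg15, a moderately bright host, read 8.0, 8.09 and 7.87 on the control arrays against 8.07, 8.11, 8.22 and 8.17 after deletion. The difference was 0.15 (SE 0.08, 95% interval -0.02 to 0.33), and the groups overlapped by the first deletion array alone, which lay below the second control array. Snhg17 had 3 probesets. The brightest read 9.68, 9.97 and 9.81 against 9.83, 9.88, 10.03 and 9.89, a difference of 0.09 (SE 0.09). The other two gave differences of 0.11 (SE 0.08) and -0.10 (SE 0.13), so the probesets of this gene did not share a direction. The differences of the hosts not described array by array were 0.09 (SE 0.08) for Snhg20, 0.09 (SE 0.09) for Snhg10, 0.06 (SE 0.10) for Snhg7, 0.06 (SE 0.08) for Snhg12, 0.05 (SE 0.08) for Epb41l4aos and 0.00 (SE 0.09) for Dancr.

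The 3 hosts with a lower deletion mean were the dimmest ones. Snhg9, the host of Snora78, read 5.19, 5.08 and 5.10 on the control arrays against 5.00, 5.06, 5.05 and 5.02 after deletion, a difference of -0.09 (SE 0.06, 95% interval -0.23 to 0.05). The groups did not overlap, on values that all lay below the median gene. Snhg11, a transcript best known from neurons, read 6.62, 5.96 and 6.29 against 6.27, 6.21, 6.28 and 6.30, a difference of -0.03 (SE 0.14), and the control arrays surrounded the deletion arrays on both sides. Snhg18, the host of Snord123 and the dimmest of the 30 genes, read 4.20, 4.03 and 4.67 against 4.44, 4.10, 3.97 and 4.32, a difference of -0.10 (SE 0.17), and the groups overlapped widely. A second probeset of Snhg11, with a mean of 5.47, gave 0.04 (SE 0.11).

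**Figure D2:**
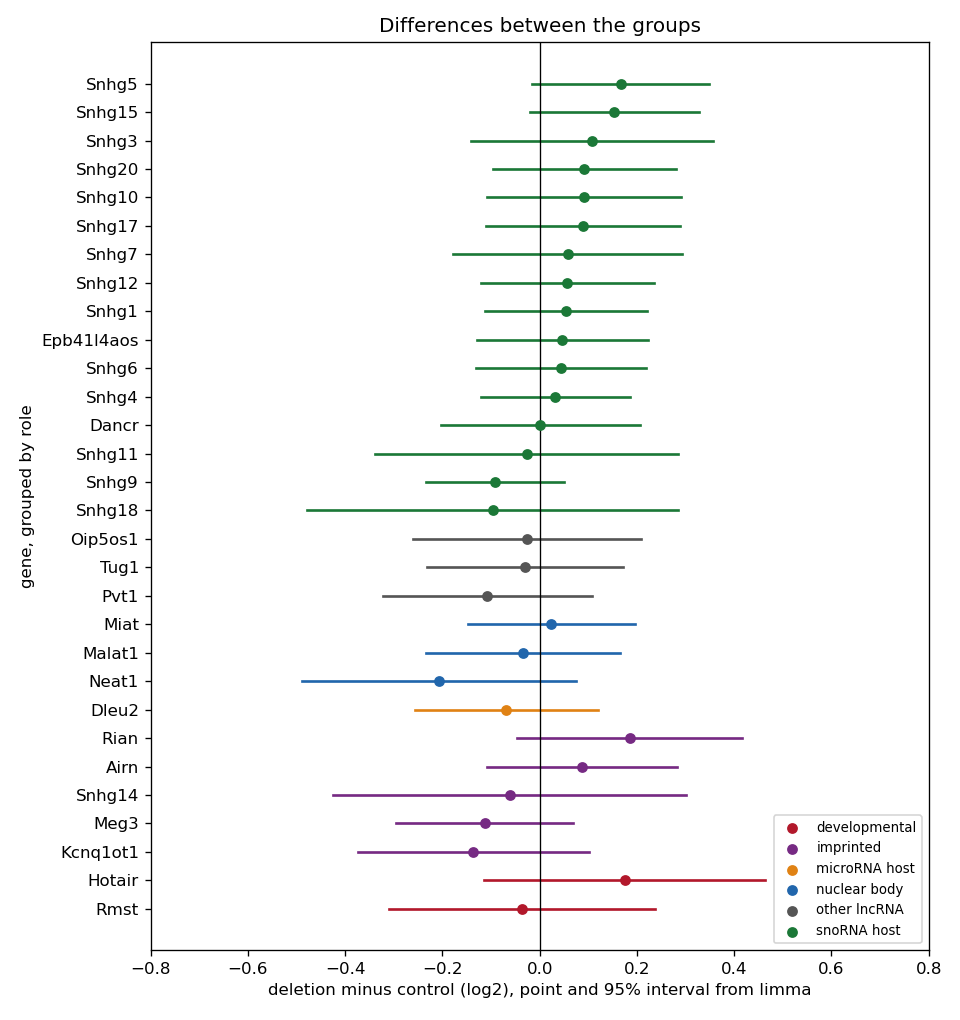
Difference between deletion and control means (log2, deletion minus control, horizontal axis) of the 30 genes grouped by role, with 95% confidence intervals from the limma fit as bars. Every interval includes 0, and the highest difference among the snoRNA hosts is 0.17, that of Snhg5.

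The RNAs of nuclear bodies were bright apart from Miat. Malat1 read 11.25, 11.57 and 11.46 on the control arrays against 11.34, 11.43, 11.46 and 11.35 after deletion, a difference of -0.04 (SE 0.09, 95% interval -0.23 to 0.16), with the deletion values inside the control range. Its second probeset, with a mean of 8.93, gave -0.01 (SE 0.14). Neat1, the scaffold of paraspeckles, had the most negative difference of the 30 genes. It read 10.08, 9.88 and 10.38 on the control arrays against 10.01, 9.98, 9.89 and 9.74 after deletion, a difference of -0.21 (SE 0.12, 95% interval -0.49 to 0.07). The third control array lay well above all others, the first just above the highest deletion array, and the second among the deletion arrays. Leaving out 1 array at a time gave differences from -0.33 to -0.07. Miat, which forms foci of its own in the nucleus, read 4.43, 4.47 and 4.65 against 4.51, 4.57, 4.49 and 4.59, a difference of 0.02 (SE 0.08), and its deletion values lay inside the control range.

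Of the 5 genes from imprinted domains, where only 1 parental copy is used, the deletion mean was higher for 2 and lower for 3, with a median difference of -0.06. Rian, a snoRNA and microRNA host from the maternal copy of the Dlk1-Dio3 domain, had the most positive difference of the 30 genes. It read 4.39, 4.06 and 4.35 on the control arrays against 4.34, 4.39, 4.59 and 4.49 after deletion, a difference of 0.19 (SE 0.10, 95% interval -0.05 to 0.42), and the second control array alone lay well below the rest. Meg3, from the same domain and transcribed in the same direction, did not share that direction of difference. It read 5.65, 5.73 and 5.52 against 5.63, 5.43, 5.50 and 5.53, a difference of -0.11 (SE 0.08), and the groups overlapped.

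Snhg14, the long paternal transcript that holds the Prader-Willi snoRNA clusters and runs antisense to Ube3a, read 6.89, 7.66 and 7.34 on the control arrays against 7.31, 7.12, 7.28 and 7.23 after deletion. The difference was -0.06 (SE 0.16, 95% interval -0.42 to 0.30). Its 7 arrays spanned 0.764, the widest range of the 30 genes, and the control arrays alone made that range. Airn, which silences Igf2r from the paternal copy, read 4.51, 4.79 and 4.80 against 4.83, 4.73, 4.78 and 4.81, a difference of 0.09 (SE 0.09) with overlapping groups. Kcnq1ot1, the silencing RNA of the Cdkn1c domain, gave -0.14 (SE 0.10).

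The remaining genes have no shared role. Tug1, a widely expressed nuclear and cytoplasmic RNA, read 10.17, 10.33 and 10.48 against 10.32, 10.21, 10.40 and 10.26, a difference of -0.03 (SE 0.09), with the deletion values inside the control range. Oip5os1, also called Cyrano, which directs the destruction of the microRNA miR-7, gave -0.03 (SE 0.10). Pvt1, the neighbour of Myc, gave -0.11 (SE 0.09). Dleu2 read 7.97, 8.02 and 7.96 on the control arrays against 7.97, 7.72, 8.01 and 7.96 after deletion, a difference of -0.07 (SE 0.08). All its arrays but the second deletion array lay close together. A dimmer second probeset of Dleu2, with a mean of 6.57, gave 0.08 (SE 0.11).

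The developmental RNAs, Rmst with a mean of 5.61 and Hotair with 5.47, lay just below the median gene (5.72). Hotair, an antisense RNA of the HoxC cluster, read 5.21, 5.45 and 5.45 on the control arrays against 5.80, 5.41, 5.64 and 5.31 after deletion, a difference of 0.17 (SE 0.13, 95% interval -0.11 to 0.46). Its deletion arrays lay on both sides of the 2 highest control arrays. Rmst, a partner of Sox2 in neural differentiation, read 5.66, 5.77 and 5.47 against 5.70, 5.46, 5.81 and 5.40, a difference of -0.04 (SE 0.12), and its deletion arrays reached beyond the control range at each end. Its second probeset also gave -0.04 (SE 0.14).

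The spread between arrays of a group differed strongly from gene to gene. As residual SD in the fit it ran from 0.044 for Snhg9 to 0.267 for Snhg18, with a median of 0.113 over the 30 genes against 0.126 over all genes. Because spread depends on level, each gene was also set against the 500 genes nearest to it in level. On that measure 20 of the 30 lay above the middle, with a median percentile of 64.6. Neat1 stood at percentile 97.2 of its like, Snhg3 at 96.4, Oip5os1 at 91.6, Tug1 at 91.0 and Malat1 at 90.8. Snhg14 and Snhg18 both stood at 90.4. At the other end were Snhg9 at 1.0, Miat at 11.4 and Meg3 at 12.8. These percentiles are a description of 7 arrays.

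**Figure D3:**
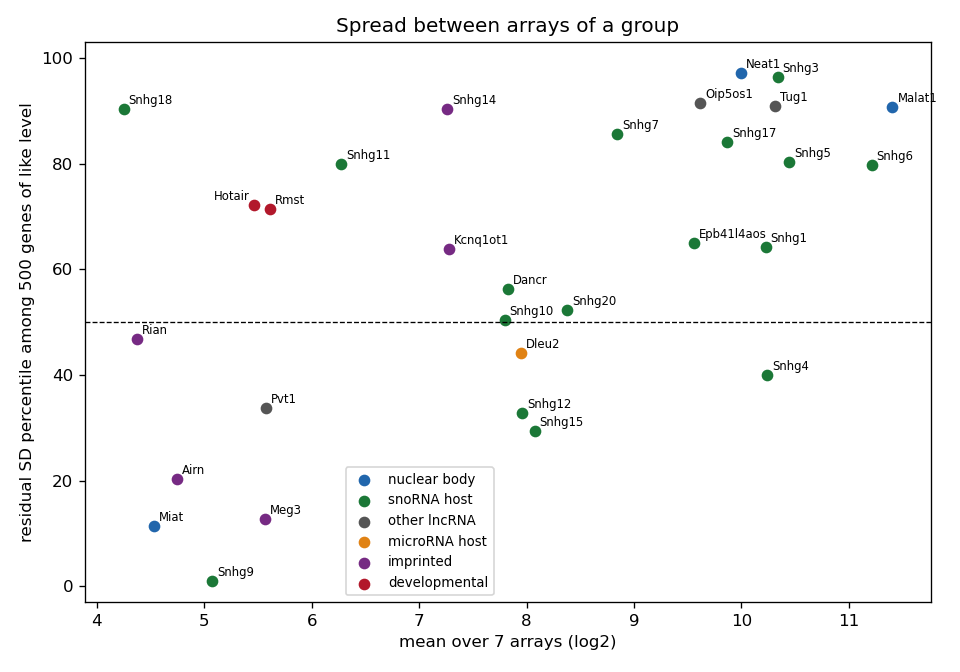
Percentile of each gene's residual SD among the 500 genes nearest in level (vertical axis) against its mean RMA value over the 7 arrays (log2, horizontal axis), coloured by role, with a dashed line at percentile 50. Of the 30 genes 20 lie above the line, Neat1 (97.2) and Snhg3 (96.4) highest, and Snhg9 (1.0) lies lowest.

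More of this spread lay in the control group. The control SD was the larger one for 23 of the 30 genes, where 57.6% of all genes had the larger SD there, and the median SD was 0.140 among control arrays and 0.085 among deletion arrays. Control SDs of 0.384 for Snhg14 and 0.330 for Snhg11 stood against deletion SDs of 0.087 and 0.040. The first control array was the lowest of the 7 for 12 of the 30 genes and the third for 7, while the third deletion array was the highest for 8 and the second control array for 7. For the snoRNA hosts, the median deviation from the gene mean was -0.07 on the first control array, 0.03 on the second and -0.07 on the third, and lay between -0.01 and 0.07 on the deletion arrays. The higher deletion means of these hosts went with low values on 2 of the 3 control arrays, and the part of those arrays in the result was not tested beyond leaving them out.

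**Figure D4:**
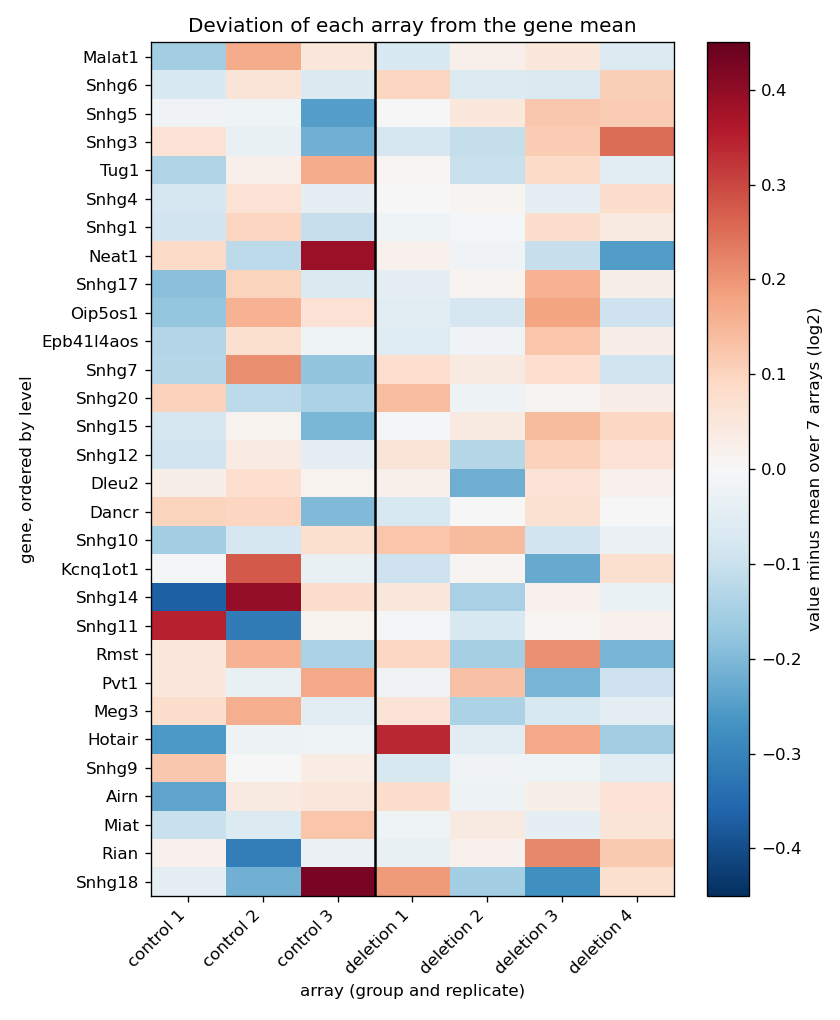
Deviation of each array from the gene's mean over all 7 arrays (log2, colour scale), with genes in rows ordered by level and arrays in columns, a line separating control from deletion. The first and the third control columns are mostly blue (low) among the bright Snhg genes, and the strongest single cells are control values of Snhg14, Snhg18, Neat1 and Snhg11.

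Leaving out 1 array at a time left 12 or 13 of the 16 snoRNA hosts by role with the higher deletion mean. With the number in the sample descriptions as a replicate block, the count was 9 of 16. Only control arrays 2 and 3 and deletion arrays 1 and 2 share such a number with an array of the other group. The differences with this block rest on those arrays alone. Control array 1, which was low for these hosts, and deletion arrays 3 and 4, which were high, do not enter them. The lower count therefore cannot tell shared handling from the loss of these arrays. Leaving out an array can only add to the number of genes whose groups do not overlap. Among the 30 it was 9 (14.27% of all genes) without the second control array, 5 (12.0%) without the first and 5 (15.04%) without the third. Without 1 deletion array it was 2 or 3, where 8.09% to 9.78% of all genes were apart. An unadjusted limma p under 0.05 was then reached by Neat1 and Snhg15 without the second control array, where 5.14% of all probesets reached one, and by Snhg14 without the first, where 4.85% did. With each array centred on its median, the groups of Snhg9 alone did not overlap.

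Companion genes of the snoRNA pathway were counted in the same way. Beside these and the later lists stand 52.2% of all genes with the higher deletion mean. An unadjusted limma p under 0.05 was reached by 4.64% of all probesets. Of 21 listed genes for snoRNP proteins, the core and assembly proteins of snoRNA particles, 19 were measured, and the deletion mean was higher for 18 and lower for 1, with a median of 0.06. None passed the adjusted test and 0 had an unadjusted limma p under 0.05. Nop56, a core protein of box C/D particles, differed by 0.09 (SE 0.06), and Rrp9, a U3 particle protein, by 0.11 (SE 0.06). Of the 78 snoRNA genes with their own probeset, the deletion mean was higher for 60 and lower for 18, with a median of 0.07, and again 0 had an unadjusted limma p under 0.05. Snora62 differed by 0.18 (SE 0.09) and Snord1b by 0.17 (SE 0.08).

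Both lists read lower on the same control arrays. The median deviation of the snoRNA genes was -0.14 on the first control array and -0.05 on the third, and for the snoRNP genes -0.07 and -0.08. Leaving out 1 array at a time left 15 to 18 of the 19 snoRNP genes and 51 to 71 of the 78 snoRNA genes with the higher deletion mean. The companion lists were not counted under the replicate blocks or the other alternatives. Genes of a list are measured on the same 7 arrays and are not independent of each other.

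For the decay of host transcripts, 12 of 18 listed nonsense-mediated decay factors were measured, and the deletion mean was lower for 10 and higher for 2, with a median of -0.04 and 0 unadjusted limma p under 0.05. Smg6, the endonuclease of the pathway, differed by -0.10 (SE 0.06), and Smg1, its kinase, by -0.08 (SE 0.08). The second control array was high for this list, with a median deviation of 0.12, and without it the deletion mean was lower for 6 of the 12. Among 15 measured genes of the nuclear RNA exosome and its cofactors, which trim and destroy nuclear RNA, 10 were higher and 5 lower. The median was 0.02, with 0 unadjusted limma p under 0.05. The 2 with the smallest p were both lower, Mphosph6 at -0.12 (SE 0.07) and Exosc8 at -0.09 (SE 0.06). These were the 2 genes of the list whose groups did not overlap, where 5.19% of all genes did not. Groups were also apart for 3 of the 19 snoRNP genes, all higher, 1 of the 78 snoRNA genes and 0 of the 12 decay factors. In the lists that follow, 1 of 16 microRNA processing genes and 28 of 472 microRNA genes were apart. The paraspeckle and speckle list and the imprinted protein-coding list had 0.

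Of 16 measured microRNA processing genes, 13 were lower and 3 higher in deletion cells, with a median of -0.03, and 0 reached an unadjusted limma p under 0.05. The 2 with the smallest p were among the 3 that were higher: Dicer1, which cuts precursor hairpins, differed by 0.12 (SE 0.09), and Ago4, a protein that carries mature microRNAs, by 0.14 (SE 0.11). Of the 13 lower ones, the Argonaute gene Ago2 differed by -0.07 (SE 0.06) and Drosha, which cuts primary transcripts, by -0.01 (SE 0.08), both chosen after their values were seen. Without the second control array 7 of the 16 were lower. Among 15 measured genes of a list drawn up for paraspeckles and nuclear speckles, 8 were higher and 7 lower with a median of 0.00. Of these, 0 reached an unadjusted limma p under 0.05. The 2 with the smallest p were Zfp36 at -0.32 (SE 0.15) and Matr3 at 0.05 (SE 0.06). Whether each listed protein, Zfp36 among them, belongs to these bodies was not checked. For 472 microRNA genes with their own probeset the count was 215 higher and 257 lower with a median of -0.02. An unadjusted limma p under 0.05 was reached by 37 of them (7.84%, against 4.64% of all probesets), 15 higher and 22 lower. After adjustment 0 passed. The 2 with the smallest p were both higher, Mir3089 at 0.62 (SE 0.14) and Mir1970 at 0.75 (SE 0.17). Their means over the 7 arrays, 4.77 and 4.98, lay below the median gene.

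Small RNA genes that lie inside the host genes were read directly. According to the RefSeq table of GRCm38.p6, 21 of the 30 genes hold at least 1, from 1 in Snhg6 or Snhg9 to 14 in Rian and 206 in Snhg14. A probeset of their own was available for 24 of the 258 small RNA genes. The deletion mean was higher for 16 of these 24, the median difference was 0.07, and 0 had an unadjusted limma p under 0.05. Array signals of a small RNA gene can come from the mature RNA or from the host transcript that contains it.

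The bright hosts were measured together with some of their small RNAs. In Snhg6, Snord87 went from 12.87 to 12.97, a difference of 0.10 (SE 0.06) beside 0.04 (SE 0.08) for the host. In Snhg4, Mir1949 differed by 0.18 (SE 0.09) and Snora74a by 0.14 (SE 0.11). In Snhg3, Snora73b differed by 0.01 (SE 0.11) and Snora73a by -0.05 (SE 0.10). Snhg12 holds 4 snoRNAs, all measured, and these straddled 0, from -0.12 (SE 0.18) for Snora44 to 0.13 (SE 0.12) for Snord99. Snora78 differed by 0.09 (SE 0.07) where its host Snhg9 differed by -0.09 (SE 0.06), and stood at 9.53 in control cells where the host stood at 5.12.

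In Rian, 8 small RNA genes were measured, of which 6 had the higher deletion mean with a median of 0.09, including Mir341 at 0.12 (SE 0.13). Mir1188 was one of the other two, at -0.10 (SE 0.09). In Dleu2, Mir15a had a mean of 6.09 in the control group and 5.87 in the deletion group, a difference of -0.22 (SE 0.15), and Mir16-1 read 6.09 and 6.07, a difference of -0.02 (SE 0.09). Neither gene passed the test, and the probesets are annotated to the genes and not to the mature arms shown above.

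**Figure D5:**
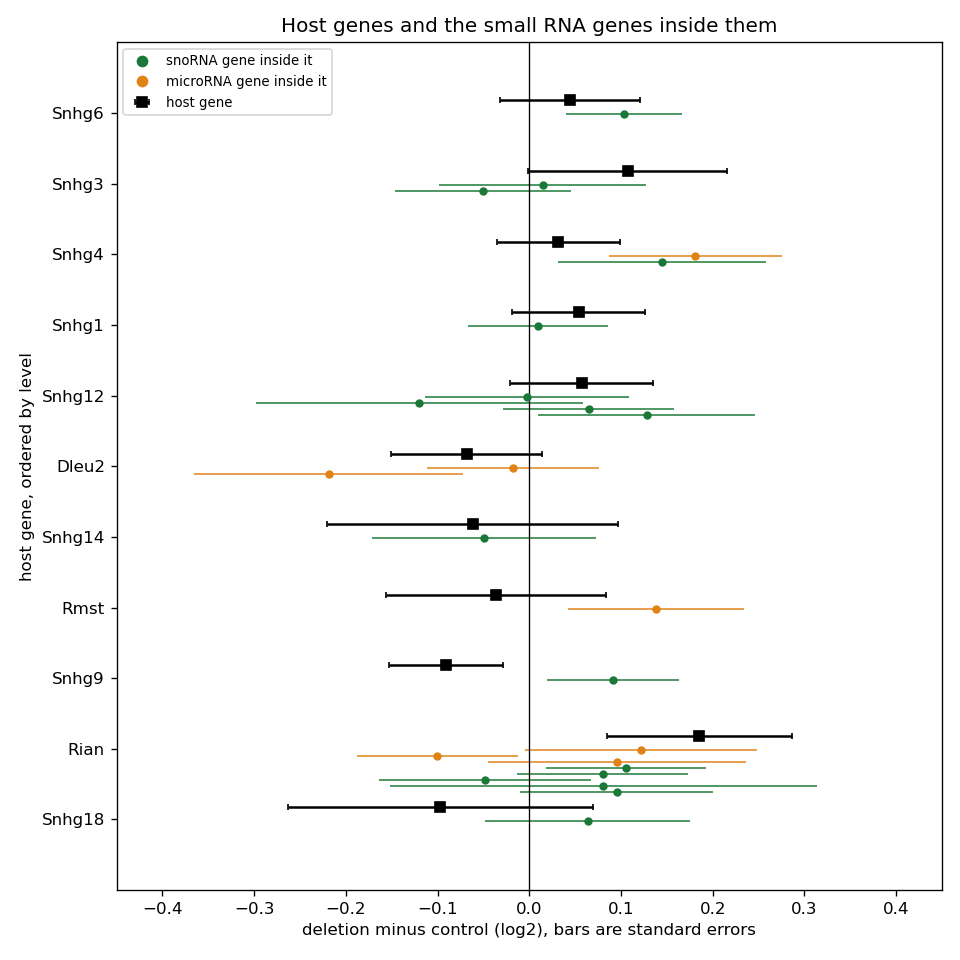
Difference between deletion and control (log2, deletion minus control, horizontal axis) of host genes (black squares) and of the snoRNA genes (green) and microRNA genes (orange) inside them, with standard errors as bars, for hosts with at least 1 small RNA gene measured. Differences of the small RNAs lie between -0.22 for Mir15a and 0.18 for Mir1949.

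Protein-coding genes beside or overlapping the 30 genes gave a further reading of the same loci, some of which act on their neighbours. Of 57 such genes measured, 38 had the higher deletion mean, against 52.2% of all genes, with a median of 0.03. Leaving out 1 array at a time gave counts from 31 to 38. The count was 31 without the second control array, with a median of 0.01, where 50.6% of all genes were higher. The adjusted test was passed by 0. Against 4.64% of all probesets, 1 of the 57 had an unadjusted limma p under 0.05. That was Igf2r, the target of Airn and the receptor for mannose-6-phosphate, which read 9.71, 9.84 and 9.82 on the control arrays against 9.75, 9.52, 9.64 and 9.43 after deletion, a difference of -0.20 (SE 0.09). The first deletion array lay above the first control array, so the groups overlapped. Ube3a, which Snhg14 overlaps, differed by 0.04 (SE 0.06). In the domain of Kcnq1ot1, Cdkn1c, a cyclin-dependent kinase inhibitor of the same family as Cdkn1b, differed by 0.17 and Kcnq1, a potassium channel gene, by 0.02.

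Dlk1 and Dio3, the protein-coding genes that flank the Meg3 and Rian domain, differed by -0.16 and 0.14. Myc beside Pvt1 read 11.25 in control and 11.19 in deletion cells, a difference of -0.06 (SE 0.10). The extremes among the neighbours were Igf2r and Epb41l4a, the gene opposite Epb41l4aos, with 0.33 (SE 0.14). Epb41l4a was dim, with means of 4.08 in the control group and 4.40 in the deletion group, below the median gene (5.72). Trim13, which overlaps Dleu2, differed by 0.32 (SE 0.17). Over the wider list of imprinted protein-coding genes, 16 of 19 were measured, and 11 were higher and 5 lower with a median of 0.06. Igf2r was again the 1 gene with an unadjusted limma p under 0.05, where 4.64% of all probesets reached one.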

How the data were processed

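The authors' deposited values are on a log2 scale and come from RMA, run in Affymetrix Expression Console according to the submitters' processing notes. The software version and the array's genome build were not given in the sources used here. Sample titles gave the group and the replicate number. The table held 41345 probesets, of which 23521 had exactly 1 gene symbol and were tested. Differences, deletion minus control, were fitted in R 4.3.3 with limma 3.58.1 (lmFit and eBayes, both groups in 1 fit, no covariate, no filter on level), two-sided, Benjamini-Hochberg adjusted over every tested probeset, and called at an adjusted p under 0.05. The fit was tested on simulated data with the spread of these arrays and 198 changed probesets in each of 10 runs. The adjusted threshold recovered 1.5% of log2 changes of 0.25, 49.5% of changes of 0.5 and 98% of changes of 1. On average 4.9 unchanged probesets also passed in each run. A change of 0.25 would thus seldom have passed. The Benjamini-Hochberg cutoff is looser when more probesets change, and 2 passed in these data. The recovery of changes of 0.5 and 1 may therefore be overstated for these data. Intervals are at 95% confidence. The precision is limited by the number of arrays.

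The genes, lists and tests were chosen with earlier results of these data known. Array values are given for the 8 brightest and 4 dimmest genes, the 6 with the smallest p, the 6 with the largest residual SD and those with several probesets. Every other gene is given by its difference. Small RNA and neighbouring genes came from the RefSeq table of GRCm38.p6, which was used for names, order and the sequences shown. Alternatives were leaving out each array, the replicate number as a block, a filter on dim probesets, all probesets, a variance trend with robust estimates, array weights, median centring and the mean over a gene's probesets. The leave-one-out counts for the gene lists, and the counts of snoRNA hosts by RefSeq table and by alternative, were added after seeing the data.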

Additional observations from a re-analysis of the deposited data

Results flagged for a closer look

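In 2 of the 30 genes, 1 deletion array stood apart from the other 3 by Dixon's criterion for 4 values. Chance alone marks about 1 in 20 such groups. Oip5os1 read 9.80 on the third deletion array, where the other deletion arrays lay between 9.53 and 9.57, and the control arrays spanned 9.45 to 9.77. Dleu2 read 7.72 on the second deletion array, where the other deletion arrays lay between 7.96 and 8.01. The gap took up 0.846 of the range in both. Groups of 3 control arrays were not tested in this way, so the wide control values of Snhg14, Snhg11 and Neat1 were not covered by it.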

How the results depend on the processing

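Across 15 alternatives, 0 of the 30 genes passed the adjusted limma threshold. Of 446 recomputed differences 411 kept their direction and 35, from 17 genes, turned sign, all with a main difference of at most 0.10 in size.

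The count of all probesets that passed was 2, and 0 with the replicate block, with the replicate block by description number and with all probesets of the table. It ranged from 0 to 2 when 1 array was left out. The count of the 30 genes with an unadjusted limma p under 0.05 was 1 with the variance trend, that of Snhg5. The share of all probesets with the variance trend was not counted. When 1 array was left out the count ranged from 0 to 2, where 3.66% to 7.28% of all probesets reached one. The count with groups apart was 1 after median centring, where the share of all genes was not counted. It ranged from 2 to 9 when 1 array was left out, where 8.09% to 15.04% of all genes were apart. The median difference ranged from -0.0017 to 0.0663 when 1 array was left out. Deviations of same-numbered arrays from their group means had correlations of 0.025, 0.061 and -0.098 by title number. By description number these were -0.171 and -0.099. Pairs with different title numbers ran from -0.171 to 0.169. So few pairs cannot decide whether same-numbered arrays were handled together. The fourth deletion array shares its title number with no control array. The replicate block therefore gave the same differences as leaving that array out, and is not a separate alternative in this respect. With the replicate block, Oip5os1 turned to 0.0008 and Rmst to 0.0283. The block by description number rests on control arrays 2 and 3 and deletion arrays 1 and 2 alone, because the other arrays share that number with no array of the other group. With the replicate block by description number the median turned to -0.0175, and Snhg4 to -0.002, Snhg1 to -0.0088, Snhg17 to -0.034, Epb41l4aos to -0.0635, Snhg12 to -0.0317, Snhg11 to 0.1126, Airn to -0.0162 and Miat to -0.0188. With array weights Malat1 turned to 0.0201, Tug1 to 0.006, Oip5os1 to 0.0307, Dancr to -0.0109 and Snhg14 to 0.0747. Median centring turned Dancr to -0.0028, and the mean over probesets turned Dleu2 to 0.0072 and Snhg11 to 0.0081. Beyond the arrays that each block leaves without a partner, what turned the signs was not tested.

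Leaving out 1 array turned the sign of Epb41l4aos (-0.0069 to 0.0966), Snhg11 (-0.1914 to 0.1382), Airn (-0.0075 to 0.1368), Miat (-0.02 to 0.0916), Malat1 (-0.1235 to 0.0384), Oip5os1 (-0.1214 to 0.0431), Snhg14 (-0.2638 to 0.1184), Rmst (-0.1182 to 0.0321), Tug1 (-0.1078 to 0.044), Snhg7 (-0.015 to 0.1785), Dancr (-0.0976 to 0.0528) and Snhg18 (-0.232 to 0.0882). Signal over background is not given for these values, so the limit it sets on the dim genes is unknown.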
